A study of Rattus norvegicus with 12 samples.

Results

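This account concerns 37 genes that make, store and release fat, in the developing mammary gland of female Wistar rats. They were chosen by name from the annotation of the array, and the brightest probe of each gene was read. The array lists 26456 gene names. Under their own names 33 of the 37 were found, Plin1 under its older symbol Plin, and Plin2 under the name Adfp through its RefSeq accession, so that 35 were measured. No probe was matched to Pnpla3 and Plin4, whose signals were not analysed here. All 35 probes were well above background on all 12 arrays, so none passed through the signal of 1 group only.

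The study asked how a low protein diet of the dam alters the mammary gland of her daughters. Dams of the LP group received chow with 8.8% protein throughout pregnancy, and dams of the NP group 17.0%. Litters were cut to 6 females, all animals had standard chow during lactation and after weaning, and weaning was at day 21. The conjoined lumbar gland was taken at day 21 (d21) or day 28 (d28) of life, after the visible lymph nodes had been cut away, and total RNA was hybridised to Agilent arrays in 1 colour. Each of the 4 groups (NP d21, LP d21, NP d28, LP d28) held 3 arrays, named here by the replicate in the labels. Array signals carry no read depth, and the number of arrays limits the precision. The labels give no litters, so that p-values measure the spread between these arrays. All d21 arrays lay on 1 slide and all d28 arrays on another, so day and slide cannot be told apart. Some arrays stood apart in markers of other cells. On LP d21 array 6a the mean of 5 B cell markers was 4.78 and that of 6 T cell markers 4.53 below the mean over all arrays, and 7 skeletal muscle markers were 3.69 above it. Muscle markers were also high, at 3.26 on LP d28 array 6f and 3.18 on NP d21 array 6a, and low, at -3.79 and -3.42, on LP d21 array 4a and LP d28 array 4f.

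The epithelial ducts of the gland grow within a fat pad, and white adipocytes use many of these genes. Adipocytes build fatty acids from glucose: citrate is cleaved to acetyl-CoA, acetyl-CoA is carboxylated and then polymerised to palmitate, and palmitate is elongated, desaturated and esterified to glycerol. The stored triglyceride is coated by perilipins and is released again by a chain of lipases, and insulin, feeding and the lipogenic factors SREBP-1c and ChREBP favour synthesis, while fasting favours release. Mammary epithelium uses the same synthetic enzymes when it makes milk fat.

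The genes fall into 13 of fatty acid synthesis, 8 of triglyceride assembly and 14 measured genes of storage, of which 8 belong to the lipid droplet and lipolysis and 6 to uptake and adipocyte regulation. Levels are log2 signals relative to the 75th percentile of the array, and a difference of 1 is a 2-fold change. Values are listed in the order of replicates 4a, 5a and 6a for NP d21, replicates 4a, 6a and 7c for LP d21, replicates 4f, 5f and 6f for NP d28, and replicates 4f, 6f and 7f for LP d28. Differences come from a limma fit over all 12 arrays. Adjusted p-values are limma's, with Benjamini-Hochberg adjustment over 23209 tested probes. In such tissue RNA, fewer cells of a type and less RNA per cell cannot be told apart.

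Acaca, Acly, Fasn and Elovl6 encode enzymes that turn citrate into long fatty acids, and the enzyme encoded by Me1 supplies NADPH. At d21 the signals of all of them were on every LP array above every NP array. Their log2 differences were 0.63 to 1.07, while none of the storage genes had groups apart. None of these diet differences passed limma's test at either day. At d28 the same enzymes and Thrsp had higher signals than at d21, by 1.52-fold for Thrsp and up to 2.47-fold for Me1, at an unadjusted p under 0.05 and with adjusted p-values over that level. The 14 storage genes gave diet differences from -0.22 (Cebpa) to 0.41 (Plin2) at d21 and from -0.45 (Lpl) to 0.72 (Aqp7) at d28, and differences between days from -0.29 (Aqp7) to 0.33 (Pnpla2). At d28 NP array 4f and LP array 6f had low signals of synthesis genes, and several diet values turn on them.

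Promoter sequences show what the named genes carry upstream of their start, since several synthesis genes had higher signals at d28 together. RefSeq windows on GRCr8 were found for 26 of the 37 genes. None was found for Acaca, Fasn and Elovl6, whose signals were also higher at d28, so the counts of windows leave them out. The 250 bases before the start are printed 5′ to 3′ for 3 synthesis genes with higher signals at d28 (Acly, Me1 and Thrsp) and for Elovl5, whose signal was lower at d28 at an unadjusted p under 0.05. Capitals mark the motifs CACGTG (E-box), CCAAT (NF-Y box) and GGGCGG (Sp1 box) on either strand.
Acly, chr10:85963632-85963881, minus strand: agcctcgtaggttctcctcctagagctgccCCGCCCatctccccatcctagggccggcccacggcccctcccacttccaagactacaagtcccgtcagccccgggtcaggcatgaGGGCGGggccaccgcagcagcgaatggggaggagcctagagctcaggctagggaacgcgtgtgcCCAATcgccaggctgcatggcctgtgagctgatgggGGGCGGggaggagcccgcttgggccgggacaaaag
Me1, chr8:96540245-96540494, minus strand: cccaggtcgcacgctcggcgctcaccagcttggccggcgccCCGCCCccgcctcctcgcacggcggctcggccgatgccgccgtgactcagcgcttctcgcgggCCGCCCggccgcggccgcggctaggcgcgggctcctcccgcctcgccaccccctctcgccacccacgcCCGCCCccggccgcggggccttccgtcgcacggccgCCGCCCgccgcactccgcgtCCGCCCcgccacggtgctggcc
Thrsp, chr1:161138965-161139214, minus strand: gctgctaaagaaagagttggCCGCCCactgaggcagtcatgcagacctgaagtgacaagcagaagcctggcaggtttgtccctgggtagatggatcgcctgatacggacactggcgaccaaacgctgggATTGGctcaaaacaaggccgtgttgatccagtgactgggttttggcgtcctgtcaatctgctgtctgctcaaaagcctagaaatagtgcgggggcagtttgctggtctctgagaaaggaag
Elovl5, chr8:87670914-87671163, plus strand: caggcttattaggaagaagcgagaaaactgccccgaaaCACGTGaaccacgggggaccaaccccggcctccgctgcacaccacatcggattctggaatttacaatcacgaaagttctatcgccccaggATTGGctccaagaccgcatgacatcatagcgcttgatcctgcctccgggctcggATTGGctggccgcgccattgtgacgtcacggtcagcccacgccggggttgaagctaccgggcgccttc
The Acly window held 1 CCAAT and 3 GGGCGG, that of Me1 5 GGGCGG, and that of Thrsp 1 of each. The Elovl5 window held 1 E-box and 2 CCAAT. Of 27457 RefSeq windows of the same length, 34.3% held CCAAT, 32.4% GGGCGG and 5.79% the E-box. CCAAT stood in 7 of 10 synthesis windows and in 3 of 11 storage windows, GGGCGG in 6 and 8, and the E-box in 1 and 2. The storage windows include those of Pnpla3, which held CCAAT and GGGCGG, and of Plin4, which held GGGCGG, although neither gene was measured. The sterol element TCACNCCAC and a direct repeat of AGGTCA with 1 base between (DR1), which stood in 0.976% and 0.0546% of all windows, were in none of the 26. The motifs did not overlap each other in the printed windows.

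The supply of acetyl-CoA and its carboxylation come before the synthase. Acly, ATP citrate lyase, supplies cytosolic acetyl-CoA. Its signal was 3.05, 3.06 and 3.17 in NP d21, 3.48, 4.07 and 3.64 in LP d21, 3.54, 4.54 and 3.89 in NP d28 and 5.62, 3.49 and 5.02 in LP d28. The 3 NP d21 arrays were the lowest of all 12, and LP d28 arrays 4f and 7f the highest. Acaca, acetyl-CoA carboxylase alpha, makes the malonyl-CoA from which fatty acids grow. It read -2.66, -3.11 and -2.75 in NP d21, -2.13, -1.27 and -1.89 in LP d21, -2.06, -1.28 and -1.55 in NP d28 and -0.30, -2.43 and -0.53 in LP d28. The 3 NP d21 arrays were again the lowest, and array 6f lay below the other LP d28 arrays and below all NP d28 arrays.

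Fasn, fatty acid synthase, had signals of 4.37, 3.82 and 4.74 in NP d21, 4.87, 5.64 and 5.06 in LP d21, 4.66, 6.15 and 5.73 in NP d28 and 6.67, 4.80 and 6.60 in LP d28. Me1, the malic enzyme that supplies NADPH to the synthase, gave 2.32, 2.13 and 2.35 in NP d21, 2.73, 3.83 and 2.51 in LP d21, 2.01, 4.63 and 3.71 in NP d28 and 5.19, 2.97 and 5.20 in LP d28. At d28 both genes split the arrays in the same way: NP 4f and LP 6f lay with the d21 arrays, and the other 4 arrays lay above all or all but 1 of the d21 arrays.
Elovl6 lengthens palmitate to stearate. Its values were 0.059, -0.28 and 0.13 in NP d21, 0.67, 1.42 and 0.51 in LP d21, 0.072, 2.01 and 1.45 in NP d28 and 3.14, 0.38 and 2.54 in LP d28, with the same 2 arrays lowest at d28. Thrsp (Spot 14), a lipogenic protein that responds to thyroid hormone and carbohydrate, gave 3.76, 3.44 and 3.95 in NP d21, 3.84, 4.55 and 4.22 in LP d21, 4.41, 4.49 and 4.24 in NP d28 and 5.16, 3.79 and 5.28 in LP d28. Here NP d28 array 4f lay among its group, and only LP d28 array 6f was low.

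**Figure D1:**
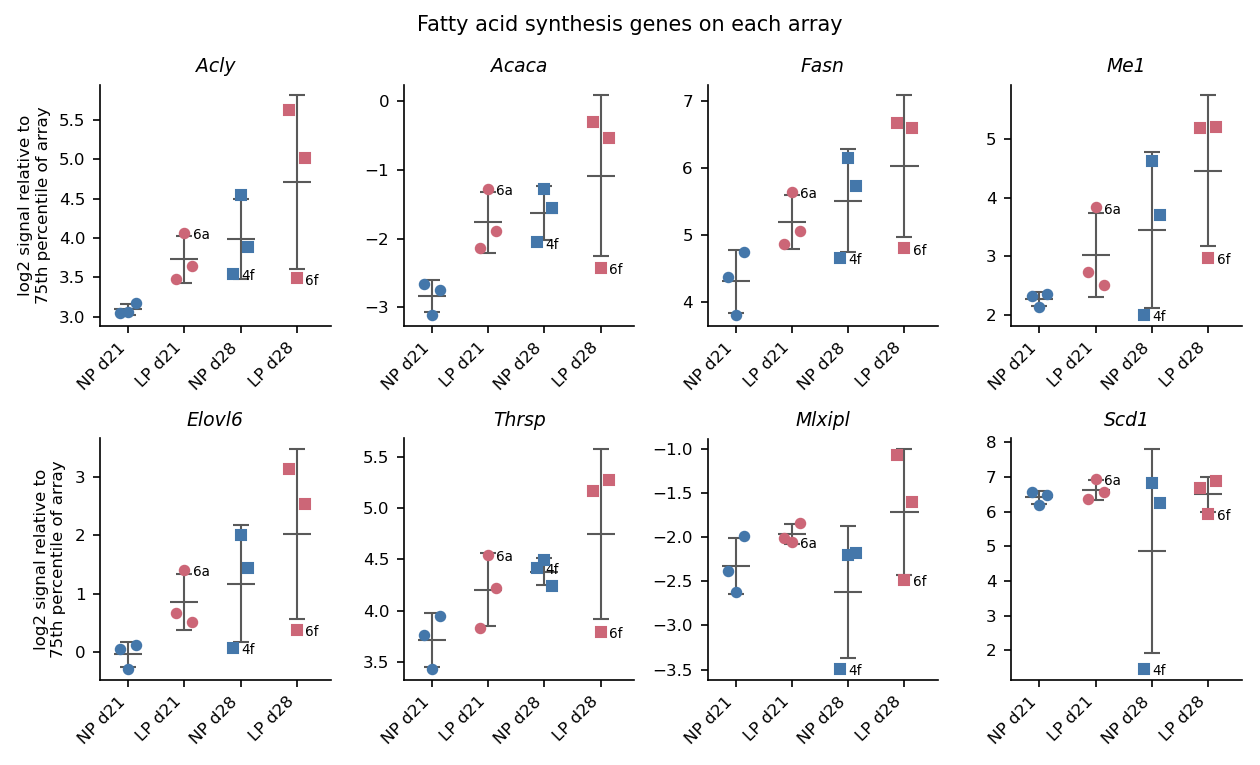
Log2 signal relative to the 75th percentile of the array (y axis) of 8 fatty acid synthesis genes in the 4 groups (x axis), each point 1 array, with horizontal lines at the mean and bars of 1 SD (n = 3). In Acly, Acaca, Fasn, Me1 and Elovl6, NP d21 was the group with the lowest mean, and arrays 4f (NP) and 6f (LP) were the lowest of their groups at d28.

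At d21, every LP array read above every NP array for 5 of the 13 synthesis genes, namely Acaca, Acly, Fasn, Elovl6 and Me1, and for 2 assembly genes, Agpat2 and Gpd1. That is 7 of 35 members, or 20.0%, where 5.59% of all tested genes had groups apart in that direction. Agpat2 was barely apart, with 0.8535 on NP array 6a and 0.854 on LP array 4a. LP array 6a was the highest d21 array for all 7, so they are not separate counts. For none of the 35 was every LP array below every NP array, against 6.03% of all tested genes. LP minus NP was 1.07 (SE 0.49) for Acaca, 0.90 (SE 0.68) for Elovl6, 0.88 (SE 0.53) for Fasn, 0.76 (SE 0.73) for Me1 and 0.63 (SE 0.46) for Acly. None of these differences passed the test: the lowest adjusted p of any member in limma was 0.861, and 0 of 35 had an unadjusted p under 0.05, against 4.34% of all tested genes. No probe of the array had an adjusted p under 0.05 at d21. Without LP d28 array 6f, which enters the shared variance, Acaca, Acly, Fasn, Thrsp and Gpd1 had an unadjusted p under 0.05 at d21 (3.71% of all tested genes) and an adjusted p of 0.897 each in limma.

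Other synthesis genes differed less at d21. Scd1, stearoyl-CoA desaturase, which puts the double bond into oleate, read 6.56, 6.19 and 6.48 in NP d21 and 6.37, 6.94 and 6.55 in LP d21, with the groups overlapping. Mlxipl encodes ChREBP, the glucose-responsive factor of lipogenic genes. Its signal was -2.38, -2.62 and -1.99 in NP d21 and -2.01, -2.06 and -1.84 in LP d21, and LP minus NP was 0.36 (SE 0.41). For Srebf1, which encodes SREBP-1, the difference was -0.030 (SE 0.27). Fads1 and Fads2, the desaturases of polyunsaturated fatty acids, gave LP minus NP of 0.28 (SE 0.26) and 0.39 (SE 0.23). Fads2 read -4.39, -4.07 and -4.25 in NP d21, -3.72, -3.56 and -4.27 in LP d21, -4.54, -3.72 and -4.14 in NP d28 and -3.90, -3.89 and -4.18 in LP d28, with LP arrays 4a and 6a above all NP arrays at d21. Fads1 read -0.54, -0.13 and 0.35 in NP d21, 0.12, 0.51 and -0.11 in LP d21, -0.85, -0.23 and -0.32 in NP d28 and 0.16, -0.25 and -0.075 in LP d28, with overlapping groups at both days. Elovl5, which elongates polyunsaturated fatty acids, gave a difference of 0.051 (SE 0.15), and Acacb, the mitochondrial carboxylase that restrains fatty acid oxidation, 0.14 (SE 0.37). The difference was above 0 for 12 of 13 synthesis genes, with a median of 0.39, for 6 of 8 assembly genes, with a median of 0.24, and for 5 of 14 storage genes, with a median of -0.048. The median over 20199 tested genes was 0.011. Over the 12 arrays the signal of Srebf1 ran from 2.67 to 3.73 and that of Acacb from -5.51 to -4.05, with the highest array NP d28 4f for both.

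LP array 6a was the highest of the d21 arrays for 11 of the 13 synthesis genes, all but Srebf1 and Mlxipl. Without it, LP minus NP at d21 was 0.82 for Acaca, 0.65 for Fasn, 0.62 for Elovl6, 0.46 for Acly and 0.35 for Me1. It was then 0.53 (SE 0.57) for Gpam, 0.11 (SE 0.27) for Fads1, -0.094 (SE 0.40) for Acacb and 0.051 (SE 0.20) for Plin2. The median of synthesis genes without that array was 0.31. On the same array the list of 10 luminal epithelial markers was 1.10 above its mean over all arrays, the highest of the 12. Over the d21 groups that epithelial list ran from -0.87 to 0.22 in NP and from -0.40 to 1.10 in LP. Its part in the differences was not tested.

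At d28, LP minus NP was above 0 for 11 of 13 synthesis genes, with a median of 0.51, for 5 of 8 assembly genes, with a median of 0.30, and for 8 of 14 storage genes, with a median of 0.081, where the median of all tested genes was -0.049. Mlxipl read -3.49, -2.20 and -2.18 in NP d28 and -1.07, -2.48 and -1.60 in LP d28, and LP minus NP was 0.90 (SE 0.41), adjusted p = 0.581 in limma. The groups overlapped, since array 6f was below NP arrays 5f and 6f. For Acly the difference was 0.72 (SE 0.46), for Me1 1.01 (SE 0.73), for Elovl6 0.84 (SE 0.68), for Acaca 0.54 (SE 0.49) and for Fasn 0.51 (SE 0.53). No synthesis gene had groups apart at d28, and no member had an unadjusted p under 0.05, against 7.95% of all tested genes. The lowest adjusted p among members was 0.581, which was also the lowest on the array. Markers of epithelium had higher means in LP at d28: the mean of the 10 luminal markers ran from -0.89 to 0.14 in NP and from 0.20 to 0.38 in LP, and that of the 6 milk protein genes, of which Csn2 was not well above background on any array, from -0.75 to 0.083 and from 0.31 to 0.99. On both lists every LP array was above every NP array. Single genes went both ways: the groups overlapped for Elf5 and Lalba and were apart for Krt18 and Epcam. None of the tested luminal or milk genes had an unadjusted p under 0.05 for diet at d28 in limma. How often comparable lists have groups apart was not computed. On the list of 8 myoepithelial markers the groups overlapped, with -1.28 to 0.13 in NP and 0.083 to 0.24 in LP. The part of these lists in the diet differences at d28 was not tested.

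Scd1 gave the largest difference of any member at d28, and it rested on a single array. Its signal was 1.47, 6.83 and 6.26 in NP d28 and 6.68, 5.94 and 6.87 in LP d28. NP array 4f was far below the other 11 arrays, which lay between 5.94 and 6.94. LP minus NP was 1.64 (SE 1.10) and -0.047 (SE 0.30) without NP array 4f. The same array was also the lowest of all 12 for Mlxipl, Me1, Elovl5, Fads1, Fads2, Dgat2 and Aqp7. Without it, LP minus NP at d28 was 0.47 for Mlxipl, 0.29 for Me1, 0.29 for Elovl6 and 0.083 for Fasn.

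The only member with groups apart at d28 was Plin2, a perilipin found on lipid droplets of most cell types. It read 2.34, 2.74 and 2.61 in NP d21, 2.87, 3.69 and 2.36 in LP d21, 2.56, 2.82 and 2.66 in NP d28 and 2.91, 3.38 and 3.13 in LP d28. The difference was 0.46 (SE 0.28) at d28, adjusted p = 0.587 in limma, and 0.41 (SE 0.28) at d21, where the groups overlapped. At d21 it was 0.051 (SE 0.20) without LP array 6a, the highest of its group. That is 1 of 35 members higher on every LP array, against 4.42% of all tested genes, and 0 of 35 lower, against 12.3%.

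At d28 the synthesis signal split the arrays of each diet. LP arrays 4f and 7f were high and LP array 6f low, while NP arrays 5f and 6f were in between and NP array 4f low. NP array 4f and LP array 6f were the 2 lowest of the 6 d28 arrays for 8 of 13 synthesis genes, 3 of 8 assembly genes and 1 of 14 storage genes, and for 8.21% of 17419 genes well above background on all arrays. This pair of arrays was picked out after the values were seen. The skeletal muscle list was 3.26 above its mean on LP array 6f, and 3.42 and 2.65 below it on LP arrays 4f and 7f. On NP arrays it ran from -1.44 to 0.19 at d28. At d21 the list was highest, at 3.69, on LP array 6a, the d21 array with the highest mean of synthesis genes, 0.40, and it was 3.18 on NP array 6a, where that mean was -0.22. The part of muscle in these values was not tested.

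Without LP array 6f the account of d28 changed. Then 12 of 35 members had an unadjusted p under 0.05, all higher in LP, against 8.19% of all tested genes in either direction and 2.66% higher in LP. These were the synthesis genes Acly, Acaca, Thrsp, Mlxipl, Elovl6, Me1 and Fasn, the assembly genes Agpat2 and Gpd1, and the storage genes Slc2a4, Aqp7 and Mgll. LP minus NP was then 1.33 (SE 0.30) for Acly, 1.22 (SE 0.29) for Acaca, 1.66 (SE 0.51) for Elovl6 and 0.78 (SE 0.22) for Slc2a4. The adjusted p of each of the 12 was 0.601 in limma. The median of synthesis genes was 1.12 without that array. Among the 12 fits that each left out 1 array, this fit gave the highest count at d28. Without NP array 4f, LP array 4f or LP array 7f, no member was called at d28.

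**Figure D2:**
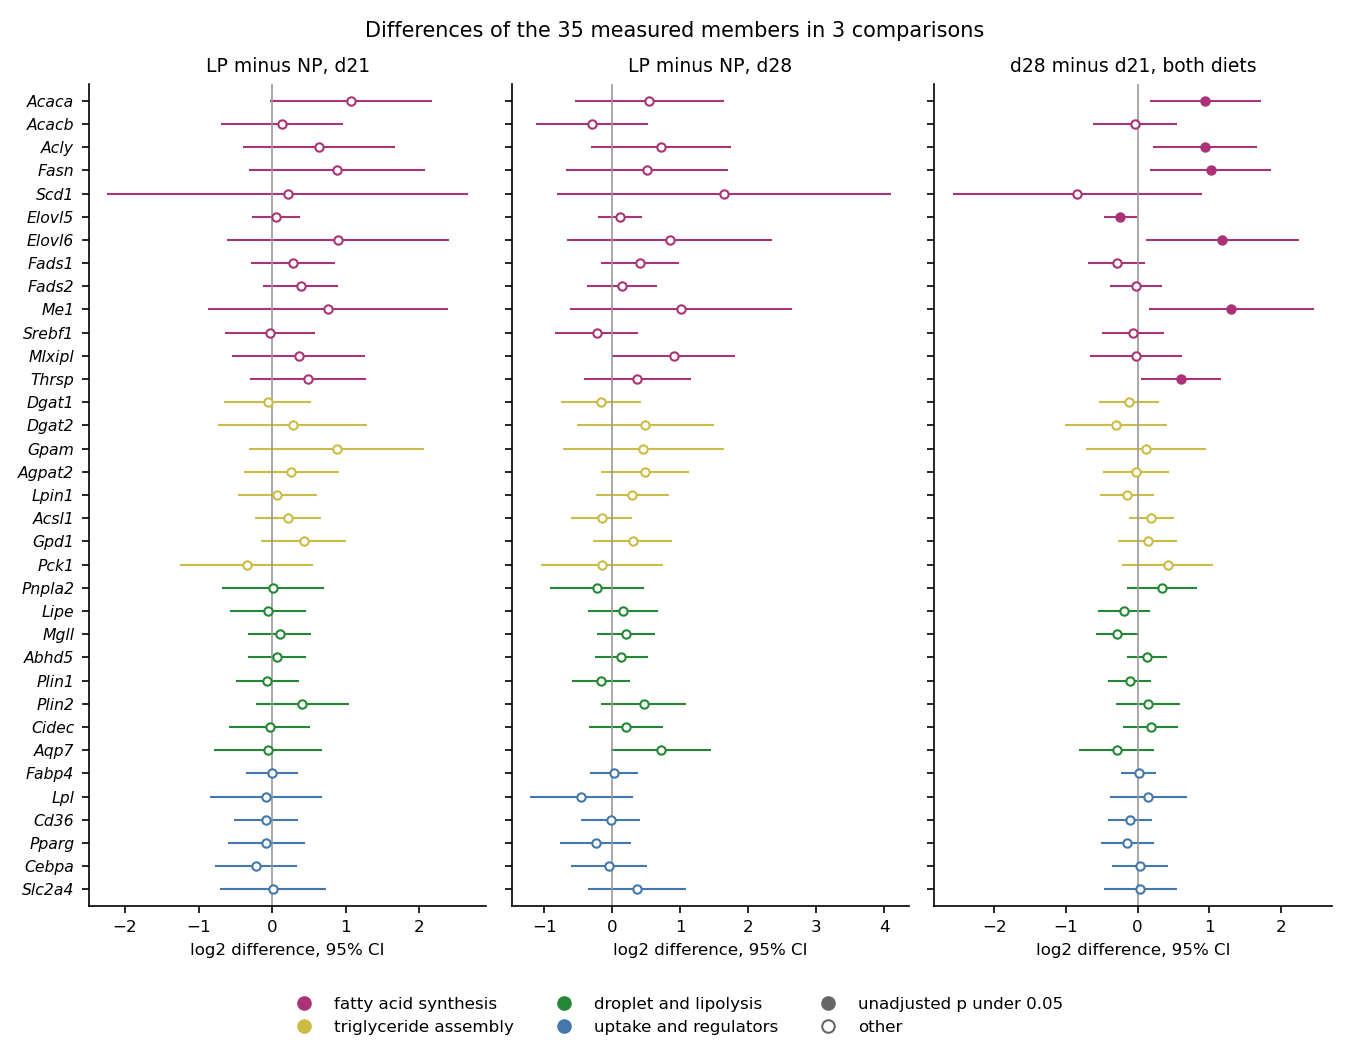
Log2 difference (x axis) of each of the 35 measured genes (y axis) for LP minus NP at d21, LP minus NP at d28, and d28 minus d21 over both diets, as points with 95% confidence intervals from limma. Colours give the class, and filled points have an unadjusted p under 0.05. Filled points occur only in the comparison of days and only among synthesis genes, 6 to the right of 0 and Elovl5 to the left.

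Between the days, over both diets, 7 of 35 members (20.0%) had an unadjusted p under 0.05, a share close to the 19.0% of all tested genes, and none an adjusted p under 0.05, where 1.84% of all tested genes did. All 7 were synthesis genes: 6 were higher at d28, where 10.4% of all tested genes were called higher, and Elovl5 was lower, where 8.59% were. None of the 8 assembly genes or the 14 storage genes was called. The differences d28 minus d21 were 1.31 (SE 0.52) for Me1, or 2.47-fold, 1.18 (SE 0.48) for Elovl6, or 2.27-fold, and 1.02 (SE 0.38) for Fasn, or 2.02-fold. For Acaca the difference was 0.94 (SE 0.35), for Acly 0.94 (SE 0.33), for Thrsp 0.60 (SE 0.25) and for Elovl5 -0.24 (SE 0.10). Their adjusted p-values in limma lay between 0.165 (Acly) and 0.239 (Elovl5). In all 7 the d21 and d28 arrays overlapped. Elovl5 read -2.61, -2.77 and -2.67 in NP d21, -2.61, -2.56 and -2.73 in LP d21, -3.16, -2.87 and -2.83 in NP d28 and -2.58, -3.12 and -2.82 in LP d28, and NP array 4f and LP array 6f were its lowest. Its difference was -0.19 (SE 0.099) without the first and -0.17 (SE 0.091) without the second, both with an unadjusted p over 0.05. Leaving out single arrays, the count over all 35 members ran from 1 to 7, not always of the same genes. It was 1 without LP d21 array 4a, 2 without NP d28 array 5f or LP d28 array 7f, and 3 without LP d28 array 4f. It was 4 without NP d21 array 5a or LP d21 array 7c. Pck1 was among those called without LP d28 array 7f, and Mgll without LP d28 array 4f or NP d21 array 5a. Plin2 was called without LP d21 array 6a and Acsl1 without LP d28 array 6f, while Elovl5 was not. No share of all tested genes was computed for these counts. The further probes of Me1 and Elovl6 gave 1.32 and 1.09.

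The step to d28 had the same sign in both diets for the 6 higher genes. In NP rats d28 minus d21 was 1.21 for Acaca and 1.20 for Fasn, the 2 members with an unadjusted p under 0.05 there (12.7% of all tested genes). In LP rats the values were 0.68 and 0.83, and no member reached that level, against 9.85% of all tested genes. Acly gave 0.89 in NP and 0.98 in LP, Me1 1.18 and 1.43, and Elovl6 1.21 and 1.16. The change of the diet difference between the days was tested directly. No member had an unadjusted p under 0.05 for it, against 2.27% of all tested genes, and the lowest p belonged to Aqp7, whose difference changed by 0.78 (SE 0.47), or by 0.42 (SE 0.37) without NP d28 array 4f.

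The other synthesis genes did not reach that level. Scd1 gave d28 minus d21 of -0.84 (SE 0.78), and 0.0015 (SE 0.20) without NP d28 array 4f. The genes of the lipogenic factors were near 0, with -0.064 (SE 0.19) for Srebf1 and -0.023 (SE 0.29) for Mlxipl. Fads1 gave -0.29 (SE 0.18), Fads2 -0.019 (SE 0.16) and Acacb -0.039 (SE 0.26). The median over the 13 synthesis genes was -0.019, beside the 0.045 of assembly genes, the 0.022 of storage genes and the 0.020 of all tested genes. Without LP d28 array 6f, Acaca, Acly and Thrsp had adjusted p-values of 0.0295, 0.0327 and 0.0372 in limma, where 1.17% of all tested genes were called.

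Triglyceride assembly begins with Gpam, the acyltransferase that makes lysophosphatidate. Its signal was -3.38, -3.48 and -2.15 in NP d21, -2.32, -1.45 and -2.62 in LP d21, -2.99, -2.47 and -2.60 in NP d28 and -1.29, -3.34 and -2.05 in LP d28. LP minus NP was 0.87 (SE 0.53) at d21, with overlapping groups, because NP array 6a read above LP arrays 4a and 7c. Agpat2 adds the next acyl chain. It gave 0.72, 0.53 and 0.85 in NP d21, 0.85, 1.13 and 0.90 in LP d21, 0.39, 0.33 and 0.995 in NP d28 and 1.71, 0.44 and 1.01 in LP d28, and the means differed at d21 by 0.26 (SE 0.29), although the highest NP array and the lowest LP array rounded to the same value. Gpd1 makes glycerol 3-phosphate from a glycolytic intermediate, and read 4.56, 4.16 and 4.53 in NP d21, 4.59, 5.16 and 4.79 in LP d21, 4.48, 4.59 and 4.81 in NP d28 and 5.41, 4.32 and 5.04 in LP d28, with LP minus NP of 0.43 (SE 0.26) at d21 and 0.30 (SE 0.26) at d28.

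Dgat2, which attaches the last acyl chain, gave 4.40, 4.22 and 4.53 in NP d21, 4.60, 4.85 and 4.52 in LP d21, 2.92, 4.57 and 4.45 in NP d28 and 4.98, 3.58 and 4.83 in LP d28. NP 4f and LP 6f were its lowest arrays of all. Dgat1, the other enzyme of this step, ran from 1.91 to 2.94 and differed by -0.063 (SE 0.26) at d21 and -0.16 (SE 0.26) at d28. Pck1, which feeds glycerol synthesis from pyruvate when glucose is short, was 1.62, 2.10 and 2.77 in NP d21, 2.12, 1.64 and 1.68 in LP d21, 3.095, 2.22 and 2.13 in NP d28 and 2.82, 2.65 and 1.52 in LP d28. Its highest array was NP d28 4f, on which Dgat2 was lowest. Lpin1, a phosphatidate phosphatase, read -3.47, -3.10 and -2.44 in NP d21, -2.80, -3.08 and -2.93 in LP d21, -3.45, -3.04 and -3.31 in NP d28 and -3.22, -2.95 and -2.75 in LP d28. Acsl1, which activates fatty acids with coenzyme A, read 5.63, 5.33 and 5.72 in NP d21, 5.58, 5.92 and 5.84 in LP d21, 6.12, 5.75 and 5.94 in NP d28 and 6.14, 5.35 and 5.84 in LP d28. The groups of both genes overlapped in the diet comparisons. They differed between diets by between -0.16 and 0.29 at either day, and between days by -0.15 and 0.19.

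Among the lipases and their partners no diet group stood apart. Pnpla2 (adipose triglyceride lipase) starts lipolysis and gave 2.63, 1.96 and 3.03 in NP d21, 2.44, 2.48 and 2.72 in LP d21, 3.65, 2.70 and 2.62 in NP d28 and 2.96, 2.57 and 2.77 in LP d28, with its highest array in NP d28 4f. The diets differed by 0.011 (SE 0.31) at d21 and -0.22 (SE 0.31) at d28. Lipe, hormone-sensitive lipase, read -0.52, -0.76 and -0.35 in NP d21, -0.53, -0.78 and -0.51 in LP d21, -0.38, -1.33 and -0.83 in NP d28 and -0.38, -0.85 and -0.83 in LP d28. Its difference was -0.059 (SE 0.23) at d21, with a 95% interval of -0.57 to 0.46, and 0.16 (SE 0.23) at d28, with an interval of -0.35 to 0.68. Mgll, which releases the last fatty acid, read 1.90, 1.51 and 1.83 in NP d21, 1.69, 2.09 and 1.76 in LP d21, 1.48, 1.27 and 1.48 in NP d28 and 1.89, 1.20 and 1.76 in LP d28, lowest on LP d28 array 6f. It differed by 0.10 (SE 0.19) and 0.20 (SE 0.19), and Abhd5, the activator of Pnpla2, with signals from -1.80 to -0.95, by 0.066 (SE 0.18) and 0.13 (SE 0.18). Between the days Mgll gave -0.28 (SE 0.14), with an adjusted p of 0.284 in limma, the lowest among storage genes.

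The proteins of the lipid droplet are described next. Plin1, the perilipin that gates adipocyte lipolysis, was -1.84, -2.15 and -1.53 in NP d21, -2.06, -1.78 and -1.87 in LP d21, -1.69, -2.11 and -1.88 in NP d28 and -1.84, -2.36 and -1.996 in LP d28, and its diet differences were -0.065 (SE 0.19) and -0.17 (SE 0.19). Cidec, which drives the growth of lipid droplets, ran from 1.65 to 2.57 over the 12 arrays and differed by -0.036 (SE 0.24) and 0.20 (SE 0.24). Aqp7, the channel through which glycerol leaves the adipocyte, read 2.18, 1.62 and 2.22 in NP d21, 2.08, 2.09 and 1.66 in LP d21, 0.59, 1.66 and 1.71 in NP d28 and 2.35, 1.53 and 2.24 in LP d28. At d28 LP minus NP was 0.72 (SE 0.33), and limma gave an adjusted p of 0.581. Without NP d28 array 4f it was 0.36 (SE 0.27).

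Uptake genes and adipocyte regulators complete the storage class. Fabp4, the fatty acid binding protein of adipocytes, was 6.01, 5.53 and 5.82 in NP d21, 5.56, 5.91 and 5.88 in LP d21, 5.92, 5.63 and 5.81 in NP d28 and 5.999, 5.63 and 5.81 in LP d28. Its diet difference was -0.0023 (SE 0.16) at d21, with a 95% interval of -0.35 to 0.35, and 0.028 (SE 0.16) at d28, with an interval of -0.32 to 0.38. Lpl, which frees fatty acids from circulating lipoproteins, read 3.66, 3.18 and 3.44 in NP d21, 2.44, 3.89 and 3.68 in LP d21, 3.93, 3.56 and 3.78 in NP d28 and 3.07, 3.14 and 3.71 in LP d28, and LP minus NP was -0.45 (SE 0.34) at d28. The fatty acid transporter Cd36 ran from 4.62 to 5.37 and differed by -0.088 (SE 0.20) and -0.025 (SE 0.20).
Pparg and Cebpa, the transcription factors of adipocyte differentiation, gave -0.082 (SE 0.23) and -0.22 (SE 0.25) at d21 and -0.24 (SE 0.23) and -0.051 (SE 0.25) at d28. Their signals ran from 2.88 to 3.74 for Pparg and from -1.78 to -0.66 for Cebpa. Slc2a4, the insulin-responsive glucose transporter, gave 1.43, 0.91 and 1.57 in NP d21, 1.03, 1.47 and 1.46 in LP d21, 1.20, 1.27 and 1.04 in NP d28 and 2.10, 0.70 and 1.80 in LP d28. Its difference was 0.015 (SE 0.32) at d21 and 0.37 (SE 0.32) at d28, where LP arrays 4f and 7f were the highest of all 12 and LP array 6f the lowest. A p that misses the threshold does not show equal levels: the 95% interval of the Lpl difference at d28, for example, was -1.21 to 0.31.

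**Figure D3:**
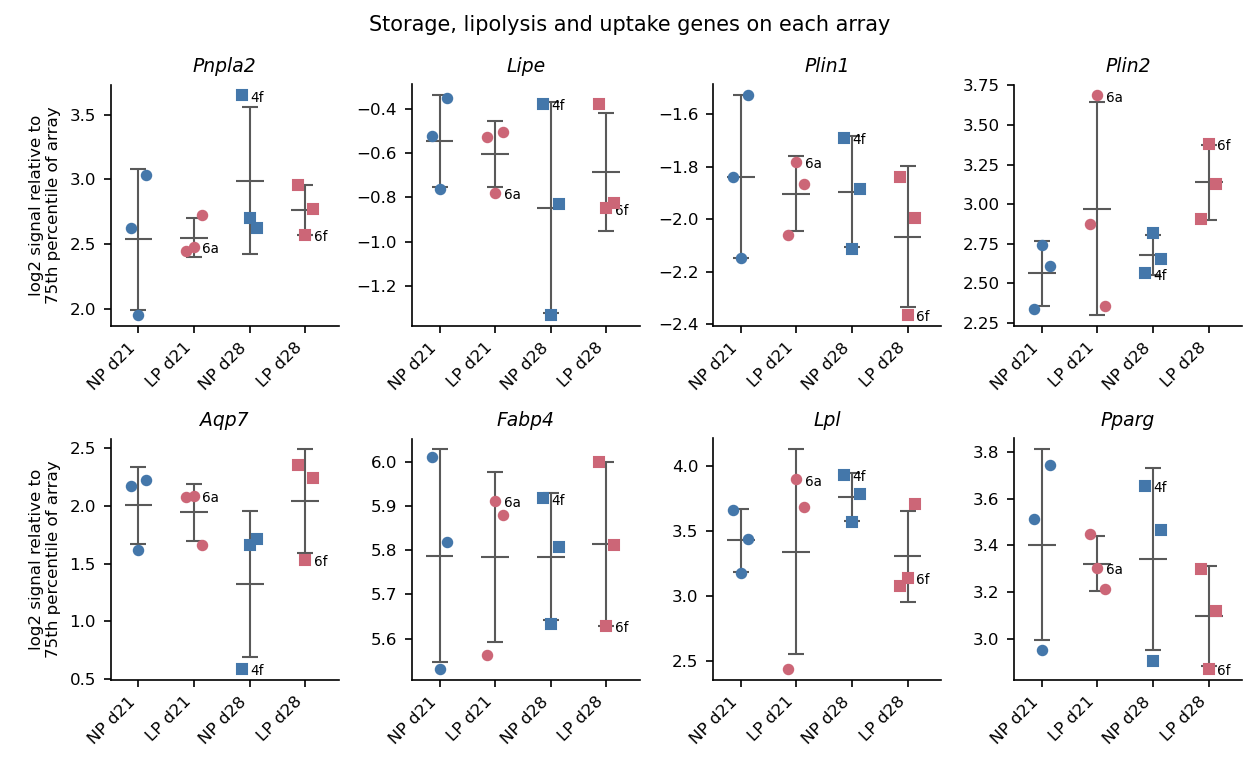
Log2 signal relative to the 75th percentile of the array (y axis) of 8 storage, lipolysis and uptake genes in the 4 groups (x axis), each point 1 array, with horizontal lines at the mean and bars of 1 SD (n = 3). The groups overlap in every panel in both diet comparisons, except for Plin2 at d28, and Aqp7 is lowest on NP d28 array 4f.

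The arrays of a group lay further apart in synthesis genes such as Scd1, Me1 and Elovl6 than in storage genes such as Fabp4 and Plin1. The SD within groups had a median of 0.55 for synthesis genes, 0.37 for assembly genes, 0.31 for storage genes and 0.20 for all genes well above background on all arrays. It reached 1.50 for Scd1, 0.99 for Me1, 0.92 for Elovl6 and 0.72 for Fasn, while the widest storage gene, Lpl, had 0.46. Elovl5 had the narrowest value of all members, 0.17. The range over the 6 d28 arrays had a median of 2.01 for synthesis genes and 0.78 for storage genes, against 0.58 for all genes, and the range over the 6 d21 arrays one of 1.01 and 0.64, against 0.48.

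**Figure D4:**
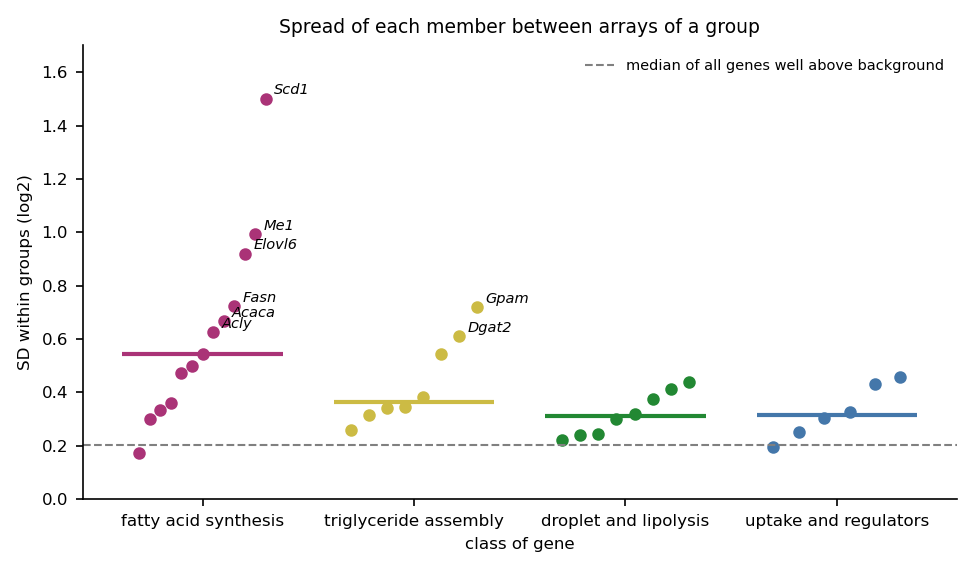
SD within groups on the log2 scale (y axis) of each measured gene, by class (x axis), with a line at the median of each class and a dashed line at the median of all genes well above background on all arrays, 0.20. The medians were 0.55 for synthesis and 0.37 for assembly, and the highest points were Scd1 at 1.50, Me1 at 0.99 and Elovl6 at 0.92.

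Averaged over genes after centring each gene on its mean over the 12 arrays, synthesis genes stood at -0.41 ± 0.18 (SD, n = 3) in NP d21, 0.063 ± 0.29 in LP d21, -0.085 ± 0.56 in NP d28 and 0.43 ± 0.64 in LP d28. Storage genes stood at 0.0079 ± 0.26, 0.0006 ± 0.14, -0.044 ± 0.17 and 0.035 ± 0.21. Synthesis minus storage was -0.53, -0.28 and -0.43 on the NP d21 arrays, 0.056, 0.27 and -0.14 on the LP d21 arrays, -0.83, 0.59 and 0.12 on the NP d28 arrays, and 0.71, -0.10 and 0.57 on the LP d28 arrays. At d21 every LP array was above every NP array on this measure, and at d28 the groups overlapped. No p is given for it, since the genes were chosen with earlier results known.

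**Figure D5:**
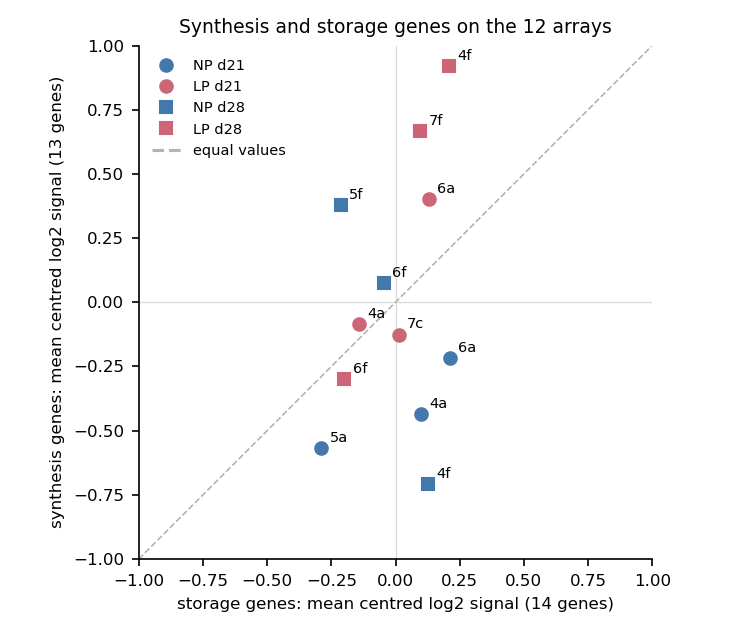
Mean centred log2 signal of 13 synthesis genes (y axis) against that of 14 storage genes (x axis), each point 1 of the 12 arrays, labelled by replicate, with a dashed line of equal values. The arrays spread from -0.71 to 0.92 along the synthesis axis and from -0.29 to 0.21 along the storage axis.

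Of 68 further genes of the pathway, 66 were found on the array and 64 were tested. At d21 an unadjusted p under 0.05 was found for 3 of the 64, against the 4.34% of all tested genes, and at d28 for 1, against 7.95%. Of these, 2 were higher in LP at d21, Lpin3, a phosphatidate phosphatase, by 0.46 (SE 0.14), and Acsl3, an acyl-CoA synthetase, by 0.48 (SE 0.19). Gpr81, the lactate receptor that restrains lipolysis, was lower by the same measure, with LP minus NP of -0.27 (SE 0.11). At d28 only Aacs, which activates acetoacetate for lipid synthesis, was called, at 0.62 (SE 0.21). Its signal was -0.64, -0.42 and -0.21 in NP d21, -0.28, 0.12 and -0.020 in LP d21, -0.21, -0.37 and -0.38 in NP d28 and 0.61, -0.20 and 0.50 in LP d28, and LP arrays 4f and 7f were the highest of all 12.

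Between the days 7 of these 64 were higher and 7 lower at an unadjusted p under 0.05, against 10.4% and 8.59% of all tested genes, and 2 passed the adjusted threshold, against 1.84%. Slc27a1, a fatty acid transport protein of adipocytes and muscle, rose by 1.03 (SE 0.21), adjusted p = 0.0449 in limma. It read 0.16, -0.058 and 0.42 in NP d21, 0.12, 0.27 and -0.031 in LP d21, 1.97, 0.94 and 0.78 in NP d28 and 1.47, 0.70 and 1.23 in LP d28, and every d28 array was above every d21 array. Gpr81 rose by 0.37 (SE 0.075), adjusted p = 0.041 in limma. Its signals were low, from -6.54 on LP d21 array 6a to -5.82 on NP d28 array 5f. The others named here as higher at d28 were Acsl4, Angptl4, Pde3b and Bscl2, and those lower were Agpat6, Fads3, Slc27a4, Elovl7, Vldlr, Fabp3 and Rxra. Angptl4, a secreted inhibitor of lipoprotein lipase induced by fasting, gave 0.59 (SE 0.20). Fabp3, the fatty acid binding protein of heart and skeletal muscle, gave -1.22 (SE 0.45).

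Of the other pathway genes, Pdk4 and Slc25a1 were singled out after their values were seen. Pdk4, the kinase that closes pyruvate dehydrogenase in fasting, read -5.53, -4.18 and -5.30 in NP d21, -5.01, -3.43 and -5.55 in LP d21, -3.06, -4.44 and -5.64 in NP d28 and -4.83, -3.02 and -4.69 in LP d28, with NP d28 array 4f, LP d28 array 6f and LP d21 array 6a the highest. Slc25a1, which exports citrate from mitochondria, read -0.20, -0.41 and -0.061 in NP d21, -0.083, 0.42 and -0.11 in LP d21, -0.54, 0.28 and -0.019 in NP d28 and 0.97, -0.37 and 0.76 in LP d28, with NP array 4f and LP array 6f the lowest at d28. LP d21 array 6a, high for Pdk4, had the highest mean of synthesis genes at d21, 0.40. In limma Pdk4 had an unadjusted p of 0.667 for diet at d21, 0.802 for diet at d28 and 0.336 between days. No test of these values beyond the diet and day comparisons was run.

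White adipocyte markers were present throughout: 6 of 7 listed genes were on the array, all 6 well above background on all 12 arrays, and their mean centred signal ran from -0.35 to 0.20 in NP d21, from -0.14 to 0.20 in LP d21, from -0.17 to 0.081 in NP d28 and from -0.32 to 0.20 in LP d28. At d28, against d21, Retn (resistin) was higher by 0.69, adjusted p = 0.0384 in limma, Cfd (adipsin) had a difference of 0.61, Tusc5 of -0.54 and Lep (leptin) of -0.85, with Lep lowest, at -5.49, on NP d28 array 4f. These 4 of 6 had an unadjusted p under 0.05, against 19.0% of all tested genes, and 1 an adjusted p under 0.05, against 1.84%. Of the brown adipocyte list, Elovl3 was not well above background on any array, Dio2 was on 1, Ucp1 on 8, and Cidea and Cox8b on all 12. Luminal epithelial markers were all present, and their mean was lowest, at -0.89, on NP d28 array 4f. The part of these cell types in the values above was not tested.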

How the data were processed

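Per the file headers, the deposited scanner files hold spot intensities that Agilent Feature Extraction 10.7.3.1 had background-subtracted and detrended within each array, with probe positions on rn4. The deposited series table holds a ratio, the processed signal divided by the median of the gene spots of the array, to within a relative deviation of 6.56e-05. It served as an alternative only. Of 58717 gene spots, 259 to 766 per array flagged as outliers were left out, as were 4259 control spots. Signals were put on a log2 scale relative to the 75th percentile of the array (1451.43 to 2369.62), and spots of a probe were averaged. Probes well above background on at least 3 arrays were fitted with lmFit and eBayes of limma 3.58.1 (R 4.3.3, prior df 1.949) as 4 groups over 12 arrays, with Benjamini-Hochberg adjustment over 23209 probes of 20199 genes. The brightest probe stood for a gene. Scripts were tested on simulated data.

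The authors' analysis in Rosetta Resolver was not repeated. The members and lists were chosen with earlier results of these data known. Signals per array are given for the 12 members with the lowest p in each diet comparison and in the day comparison and for members whose groups do not overlap. Those of Dgat2, Lipe, Plin1, Fabp4 and Slc2a4 were added after their values were seen. Of the other pathway genes, those with an unadjusted p under 0.05 are named, except 1 that is counted but not reported here. The alternatives were normexp with an offset of 50, quantile normalization, no filter or a stricter filter on dim probes, the mean of all probes of a gene, the deposited table, fits on the arrays of 1 comparison, trended and robust variances, slide row as a covariate, replicate blocks, and each array left out.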

Additional observations from a re-analysis of the deposited data

How the results depend on the processing

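The differences of the 7 members apart at d21, of Plin2 at d28 and of the 7 called between days kept their sign under every alternative tried. Other members, not called in the reported fit, changed sign at d28 without NP d28 array 4f. The difference fell below 0 for Scd1 (-0.047), Dgat2 (-0.045) and Fads2 (-0.058). It rose above 0 for Acacb (0.14), Srebf1 (0.032), Dgat1 (0.13), Pck1 (0.16), Pnpla2 (0.10), Cd36 (0.19) and Cebpa (0.013). Signs also changed without other arrays. Examples are Acsl1 at d28 without LP d28 array 6f (0.055) and Lipe at d21 without LP d21 array 6a (0.028). No member had an unadjusted p under 0.05 for diet in the reported fit. At d28 that count was 2 with normexp, 2 with probes well above background on all arrays, 2 with trended robust variances, 1 on the d28 arrays alone, 1 on the deposited table and 3 with slide row as a covariate. At d21 it was 1 with probes well above background on all arrays and 4 on the d21 arrays alone. Leaving out single arrays, it ran from 0 to 5 at d21 and from 0 to 12 at d28. Both were highest without LP d28 array 6f, where 3.71% and 8.19% of all tested genes were called. The count for the days ran from 1 (without LP d21 array 4a) to 7, that at an adjusted p under 0.05 from 0 to 3, and that for the change of the diet difference from 0 to 2. The median d28 diet difference of synthesis genes ran from 0.19 without LP d28 array 4f to 1.12 without 6f. Leaving out both NP d28 array 4f and LP d28 array 6f, chosen after seeing the data, gave 5 members at d21 (5.26% of all tested genes), 11 at d28 (5.73%), 1 for the change of the diet difference (3.48%), and 5 for the days at an adjusted p under 0.05 (1.46%). The labels do not say that replicate numbers pair the arrays: arrays of the same number correlated at -0.03 to 0.40 across days and 0.05 to 0.13 across diets, not all above 0.1, although 8 of 12 correlated best with their own number across days. With the number as a replicate block within a day 3 members were called at d21, and with diet and number as the block 1 for the days, Acly; these fits had 2 and 4 residual df. Shares of all tested genes were computed only for the reported fit, in part without LP d28 array 6f, and without both it and NP d28 array 4f. The other counts have no such share beside them and do not set the members apart from other genes. The causes of these changes were not tested. With 3 arrays a group, small differences were not detectable.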
